A study of Mus musculus with 12 samples.

Results

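Imprinted genes are transcribed mainly or only from 1 parental copy. The 39 genes described here are those on a listed set of symbols that matched the gene names of the deposited tables, out of 24411 genes there. By textbook knowledge 25 of them are paternally expressed and 13 maternally expressed, and for Gnas the expressed copy depends on the transcript. These data hold no allele information, so the parental class is background and was not measured.

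In mammals most imprints are DNA methylation marks set in the egg or the sperm, and they are kept through the general loss of methylation that follows fertilization. Zfp57, a zinc finger protein, binds a methylated hexamer in these control regions and recruits Trim28 to keep the mark. A smaller set of paternally expressed genes, among them Slc38a4, Sfmbt2, Gab1, Jade1 and Smoc1, is silenced on the maternal copy by histone methylation laid down in the egg. Many imprinted genes act in the placenta, whose trophoblast first forms as the outer layer of the blastocyst. Embryo culture is known to be able to disturb imprints, H19 among them.

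The libraries came from blastocysts of ICR mice, outbred and wild-type (ICR_WT in the labels). Eggs of superovulated females were fertilized in vitro and the embryos grew in KSOM, a culture medium, until 96 hours post insemination. Each of the 12 libraries is poly(A) RNA of 1 pool of 10 blastocysts, and 2 libraries make up each of 6 groups: ND C, ND siNT, ND siNampt, HFD C, HFD siNT and HFD siNampt. ND and HFD are the diets as the labels abbreviate them, while the series title speaks of normal weight and obese mice. The label C marks control embryos, siNT a non-targeting siRNA and siNampt an siRNA against Nampt, the rate-limiting enzyme of NAD salvage, and these siRNAs were electroporated into zygotes at 3 to 6 hours. No source used here states whether C embryos were electroporated. Replicates 1 and 2 carry the labels' batch 1 and 2, and the labels do not say whether pools came from separate matings, so p-values measure the spread between pools.

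Depth lay between 42473129 and 50503064 expected counts per library. Trophectoderm markers were expressed in every library (8 of 8, summed 2753 to 5185 TPM, a share of all transcripts that allows for gene length), as were 6 of 8 markers of the inner cell mass and 5 of 6 of primitive endoderm. None of 9 cumulus cell markers reached 1 TPM anywhere, with sums of 0.32 to 0.82. The 4 sperm transcripts summed to 0.99 to 3.35, with Tnp1 at 0. Y-linked transcripts, a readout of the share of male embryos in a pool, summed to 34.8 to 184 TPM over 4 genes and were lowest in HFD siNampt replicate 2, ND siNampt replicate 2 and ND C replicate 2. Nampt itself was 12.4 and 9.23 TPM in ND C, 15.3 and 10.2 in ND siNT, 12.4 and 8.83 in ND siNampt, 14.7 and 13.6 in HFD C, 14.7 and 13.8 in HFD siNT and 11.6 and 11.1 in HFD siNampt, where each pair of values gives replicate 1 and then replicate 2, as in all such sentences. Its value with siNampt was below that with siNT in each of the 4 matched pairs (same diet, same batch), and that difference did not pass edgeR's quasi-likelihood test (log2 fold change -0.43, SE 0.17, adjusted p = 0.396).

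Promoters of imprinted genes can lie inside the control regions that Zfp57 binds, so the hexamer tgccgc was looked for on both strands in RefSeq promoter windows of GRCm38.p6, from 250 bases before to 50 after a start. The hexamer overlapped no other motif searched, since it was the only one. It stood in 9 of the 33 members with a window (Grb10, Mcts2, Meg3, Mest, Nap1l5, Nnat, Plagl1, Snrpn and Zim1) and in 10 of their 50 windows, against 11.6% of all 32851 windows and 13.1% of 27025 genes. Below are 4 of these windows, on paternally expressed genes whose promoters are known as maternally methylated control regions and whose levels here ranged from 97.8 TPM for Mcts2 to 0.16 TPM for Nap1l5. They are printed in the direction of transcription, with each hexamer, or its reverse complement gcggca, in capitals. The first is on chr2:152686898-152687197 (plus strand), the second on chr6:30737800-30738099 (plus), the third on chr10:13090582-13090881 (plus) and the last on chr6:58907077-58907376 (minus).
Mcts2: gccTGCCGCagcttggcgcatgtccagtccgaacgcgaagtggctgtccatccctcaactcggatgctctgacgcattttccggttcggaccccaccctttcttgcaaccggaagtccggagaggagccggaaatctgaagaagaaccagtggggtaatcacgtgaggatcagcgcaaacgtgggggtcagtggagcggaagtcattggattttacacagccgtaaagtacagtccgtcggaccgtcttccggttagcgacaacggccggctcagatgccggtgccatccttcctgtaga
Mest: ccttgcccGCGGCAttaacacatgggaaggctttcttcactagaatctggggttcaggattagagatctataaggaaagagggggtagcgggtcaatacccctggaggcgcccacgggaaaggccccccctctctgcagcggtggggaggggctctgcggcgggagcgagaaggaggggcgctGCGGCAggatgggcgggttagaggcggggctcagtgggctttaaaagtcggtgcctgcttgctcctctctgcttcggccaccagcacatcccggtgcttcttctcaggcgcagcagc
Plagl1: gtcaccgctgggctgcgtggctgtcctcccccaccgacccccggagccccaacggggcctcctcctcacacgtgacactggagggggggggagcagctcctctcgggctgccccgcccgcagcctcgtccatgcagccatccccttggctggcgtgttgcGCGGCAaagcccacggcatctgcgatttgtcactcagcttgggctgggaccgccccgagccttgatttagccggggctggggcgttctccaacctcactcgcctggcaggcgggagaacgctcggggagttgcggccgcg
Nap1l5: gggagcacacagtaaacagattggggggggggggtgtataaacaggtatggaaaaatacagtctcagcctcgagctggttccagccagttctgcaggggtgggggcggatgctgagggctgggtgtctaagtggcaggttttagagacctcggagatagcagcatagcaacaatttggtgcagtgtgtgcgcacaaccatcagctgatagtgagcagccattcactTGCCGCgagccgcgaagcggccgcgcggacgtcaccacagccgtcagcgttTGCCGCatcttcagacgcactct
Mest and Nap1l5 hold 2 hexamers each and the other windows 1, within 17 to 26 CpG dinucleotides per window. A match is a description of the letters and no evidence of binding.

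Of the 39 members, 14 were expressed, meaning at least 1 TPM in each of the 12 libraries. That share may be read against 35.0% of all 24411 genes by the same rule. Another 12 members reached 1 TPM in 1 to 11 libraries, 13 were counted but never reached it, and 0 were without counts. Among paternally expressed genes 10 of 25 were expressed, 6 partly and 9 stayed below 1 TPM, and among maternally expressed genes the numbers were 3, 6 and 4 of 13. The median over members of the mean TPM was 1.71, above the 0.243 over all genes. The members were chosen with earlier results of these data known, and many of the 24411 genes never reached 1 TPM, so these medians are not matched. Summed over a library, the paternally expressed members came to 364 to 440 TPM and the maternally expressed ones to 55.6 to 363. The first sum was nearly level between pools and the second was not. Most of the first sum was Snrpn, Mcts2 and Slc38a4, with means of 162, 97.8 and 77.1 TPM. Other paternally expressed members were less even, such as Nnat with a 15-fold and Mest with a 4.72-fold range. Within the second sum Phlda2 alone ran from 7.76 to 266 TPM and Cd81 from 19.04 to 72.6. Ube3a, classed as maternally expressed but imprinted in neurons, ran from 12.9 to 17.1. Its class may not hold in blastocysts, so it cannot show whether the unevenness is general among maternally expressed genes. The number expressed rests on the threshold. With 0.5 TPM in each library it was 22 members, against 39.8% of all genes, and with a median of 1 TPM it was also 22, against 39.5%. With 5 TPM it was 11, against 22.1%, and with 10 expected counts in each library 28, against 47.9%.

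**Figure D1:**
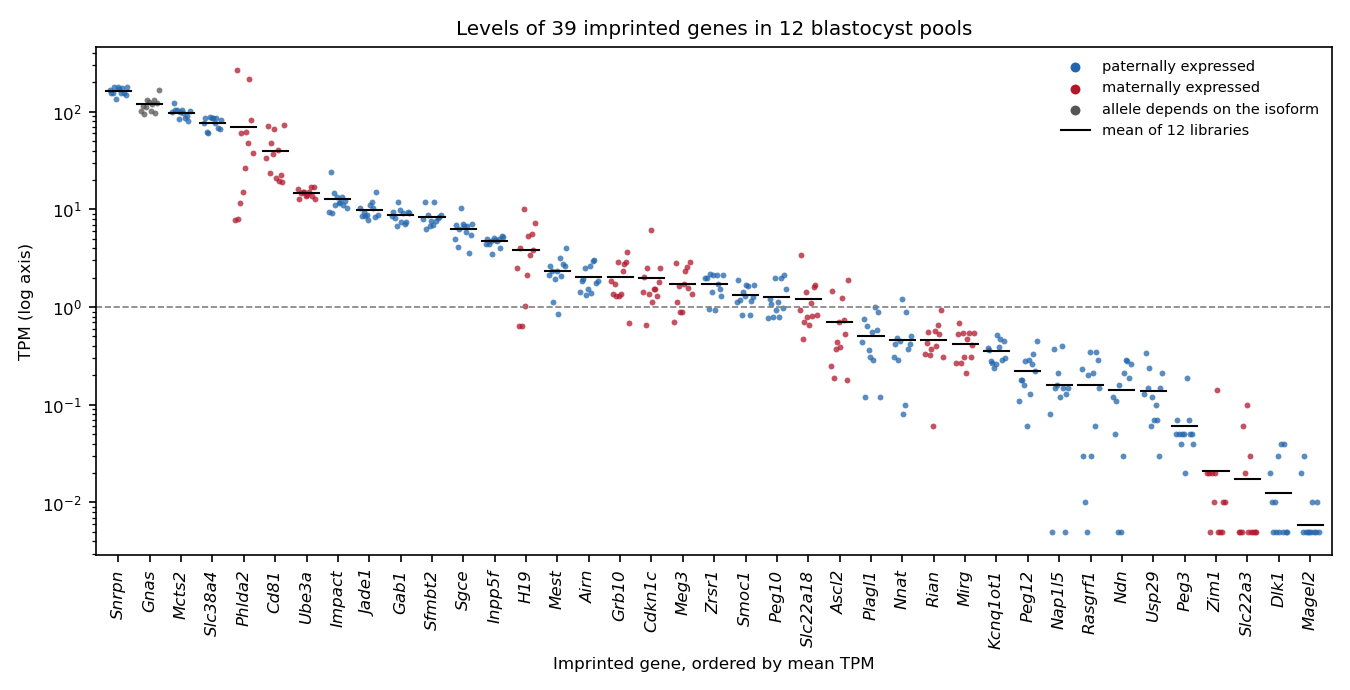
TPM (log axis) of the 39 imprinted genes in 12 libraries, ordered by mean TPM, coloured by textbook parental class; each point is a library, each bar the mean, the dashed line is 1 TPM, and values of 0 are drawn at the foot of the axis. Snrpn, Gnas, Mcts2 and Slc38a4 lead with tight points, while Phlda2 spreads from 7.76 to 266 TPM.

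Snrpn had the highest mean of the paternally expressed genes, 162 ± 14.2 TPM (SD, n = 12), higher than 95.9% of all genes. It encodes a core protein of spliceosomal small nuclear RNPs and spans chr7:59982495-60450177 on the minus strand. Snrpn was 167 and 154 TPM in ND C, 156 and 178 in ND siNT, 135 and 180.4 in ND siNampt, 169 and 154 in HFD C, 174 and 155 in HFD siNT and 148 and 179 in HFD siNampt. The groups overlapped and the highest library was 1.34 times the lowest. Other genes share 26.5% of its 50-base stretches and Snurf shares its transcript, so part of its count may be theirs.

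Mcts2, an intronless copy of the translation factor gene Mcts1 inside an intron of H13, followed at 97.8 ± 11.5 TPM (chr2:152687148-152687946). Mcts2 was 100.2 and 122 TPM in ND C, 105 and 105 in ND siNT, 84.1 and 100.3 in ND siNampt, 104 and 96.6 in HFD C, 85.4 and 89.5 in HFD siNT and 80.3 and 101 in HFD siNampt. All of its libraries lay within a 1.52-fold range, and its host gene H13 was at 9.80 TPM.

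Slc38a4, a neutral amino acid transporter of the placenta, stood at 77.1 ± 10.3 TPM (chr15:96994816-97055956). Slc38a4 was 77.0 and 86.5 TPM in ND C, 62.6 and 60.0 in ND siNT, 88.0 and 85.2 in ND siNampt, 87.0 and 75.7 in HFD C, 86.0 and 68.4 in HFD siNT and 67.1 and 82.1 in HFD siNampt. Both ND siNT libraries were below the lowest ND library of the other treatments.

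The remaining 4 members of the set silenced through histone marks in the egg followed it at lower levels. Gab1, an adaptor of receptor tyrosine kinases, was 8.65 and 9.43 TPM in ND C, 8.17 and 6.71 in ND siNT, 11.8 and 9.83 in ND siNampt, 7.39 and 9.25 in HFD C, 7.02 and 7.49 in HFD siNT and 9.43 and 9.15 in HFD siNampt. Sfmbt2, a Polycomb protein required in trophoblast, was 7.88 and 11.9 TPM in ND C, 6.31 and 8.83 in ND siNT, 6.74 and 7.62 in ND siNampt, 6.87 and 11.9 in HFD C, 7.53 and 8.13 in HFD siNT and 8.29 and 8.74 in HFD siNampt. Jade1, a subunit of a histone acetyltransferase complex, was 10.4 and 8.55 TPM in ND C, 9.33 and 8.64 in ND siNT, 8.71 and 7.80 in ND siNampt, 10.99 and 11.9 in HFD C, 10.2 and 8.39 in HFD siNT and 15.2 and 8.76 in HFD siNampt. Their means were 8.69, 8.40 and 9.92 TPM, and none of these ranges exceeded 1.95-fold. Smoc1, a secreted matrix protein, was 1.14 and 1.88 TPM in ND C, 1.17 and 0.82 in ND siNT, 1.44 and 1.30 in ND siNampt, 1.68 and 1.64 in HFD C, 0.82 and 1.15 in HFD siNT and 1.28 and 1.69 in HFD siNampt. Smoc1 reached 1 TPM in 10 of 12 libraries and missed it in ND siNT replicate 2 and HFD siNT replicate 1, so 4 of these 5 genes counted as expressed and 1 as partly expressed.

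Impact, an inhibitor of the stress kinase Gcn2, was 9.42 and 24.3 TPM in ND C, 9.09 and 14.7 in ND siNT, 11.02 and 13.2 in ND siNampt, 11.8 and 11.8 in HFD C, 13.3 and 11.1 in HFD siNT and 12.2 and 10.4 in HFD siNampt. Its value in ND C replicate 2 stood above the other 11 libraries. Sgce, which encodes a sarcoglycan and shares its control region with Peg10, was 4.96 and 6.99 TPM in ND C, 4.14 and 6.35 in ND siNT, 10.3 and 7.02 in ND siNampt, 6.77 and 5.92 in HFD C, 6.71 and 3.60 in HFD siNT and 5.44 and 7.14 in HFD siNampt. Inpp5f, a phosphoinositide phosphatase, was 4.43 and 4.96 TPM in ND C, 4.40 and 4.79 in ND siNT, 3.51 and 5.06 in ND siNampt, 4.89 and 4.74 in HFD C, 4.96 and 4 in HFD siNT and 5.33 and 5.25 in HFD siNampt. From lowest to highest library Impact spanned 2.68-fold, Sgce 2.85-fold and Inpp5f 1.52-fold.

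Airn is a noncoding RNA that silences Igf2r on the paternal copy. Airn was 1.43 and 1.85 TPM in ND C, 1.96 and 2.53 in ND siNT, 1.32 and 1.54 in ND siNampt, 2.62 and 1.38 in HFD C, 2.95 and 3.00 in HFD siNT and 1.75 and 1.83 in HFD siNampt. The siNT pools held the 2 highest values within each diet. Its TPM rests on few reads, 36 to 94 counts per library, because the annotated transcript has 797 bases within a gene of chr17:12741311-12859884. Igf2r, the gene it silences, was at 1.32 to 2.48 TPM.

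Peg10, a gene derived from a retrotransposon and required for the placenta, was 0.77 and 1.2 TPM in ND C, 1.08 and 0.80 in ND siNT, 1.98 and 0.94 in ND siNampt, 1.14 and 0.80 in HFD C, 1.98 and 0.97 in HFD siNT and 2.14 and 1.54 in HFD siNampt. Mest, a membrane protein of the hydrolase fold, was 2.13 and 2.66 TPM in ND C, 2.35 and 1.13 in ND siNT, 1.92 and 2.35 in ND siNampt, 0.85 and 3.17 in HFD C, 2.09 and 2.73 in HFD siNT and 2.63 and 4.01 in HFD siNampt. Zrsr1, an intronless relative of a splicing factor inside Commd1, was 1.99 and 1.99 TPM in ND C, 0.95 and 2.19 in ND siNT, 1.44 and 2.12 in ND siNampt, 0.94 and 2.14 in HFD C, 1.71 and 1.54 in HFD siNT and 1.31 and 2.15 in HFD siNampt. Peg10 reached 1 TPM in 7 libraries, Mest in 11 and Zrsr1 in 10. Exons of Mest overlap Copg2 and those of Zrsr1 overlap Commd1 on the other strand, and Commd1 was at 349 TPM. No source used here states whether strand was kept, so such partners cannot be told apart with certainty.

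Plagl1, a zinc finger transcription factor that restrains growth, was 0.44 and 0.75 TPM in ND C, 0.12 and 0.64 in ND siNT, 0.36 and 0.31 in ND siNampt, 0.56 and 0.29 in HFD C, 1.00 and 0.58 in HFD siNT and 0.88 and 0.12 in HFD siNampt. Nnat, a small membrane protein first known from neurons, was 0.31 and 0.42 TPM in ND C, 0.48 and 0.29 in ND siNT, 0.45 and 1.2 in ND siNampt, 0.08 and 0.10 in HFD C, 0.89 and 0.37 in HFD siNT and 0.42 and 0.50 in HFD siNampt. Each reached 1 TPM in a single library, HFD siNT replicate 1 for Plagl1 and ND siNampt replicate 2 for Nnat.

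Paternally expressed genes below 1 TPM were Kcnq1ot1, Peg12, Nap1l5, Rasgrf1, Ndn, Usp29, Peg3, Dlk1 and Magel2. Peg3 (0.02 to 0.19 TPM), its neighbour Usp29 (0.03 to 0.34) and the maternally expressed Zim1 (0 to 0.14) make up the whole of the Peg3 cluster on the list. Of the Snrpn cluster, Ndn (0 to 0.29), Magel2 (0 to 0.03) and Peg12 (0.06 to 0.45) stayed low in the same libraries that held Snrpn at 135 to 180.4 TPM. Dlk1, a Notch-like ligand, did not exceed 0.04 TPM, Nap1l5 0.40 and Rasgrf1, a Ras exchange factor, 0.35. Per length these genes were near absence, although Peg3 still had 6 to 59 counts per library.

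Kcnq1ot1, the noncoding RNA that silences the neighbouring maternally expressed genes in cis, was 0.38 and 0.36 TPM in ND C, 0.28 and 0.27 in ND siNT, 0.24 and 0.26 in ND siNampt, 0.52 and 0.39 in HFD C, 0.47 and 0.29 in HFD siNT and 0.45 and 0.30 in HFD siNampt. It illustrates how TPM depends on length. The annotated transcript has 83437 bases, so 953 to 2110 counts per library came to 0.24 to 0.52 TPM. Its exon overlaps Kcnq1 on the other strand.

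Phlda2, which restrains growth of the placenta, was the highest maternally expressed gene on average (chr7:143501545-143503145, minus strand). Among members with no library at 0 it had the widest fold range. Phlda2 was 7.76 and 266 TPM in ND C, 8.03 and 11.6 in ND siNT, 60.7 and 15.0 in ND siNampt, 26.4 and 62.5 in HFD C, 48.2 and 215 in HFD siNT and 81.9 and 37.3 in HFD siNampt. Its mean of 70.1 TPM had an SD of 84.0 (n = 12), and the highest library was 34.3 times the lowest. Of 9693 genes with a mean of at least 1 TPM and no library at 0, 37 (0.382%) had a range that wide, and the median range over the 9693 was 1.83-fold. The spread sat inside groups as well as between them: the ND C pools were at 7.76 and 266 TPM, and the HFD siNT pools at 48.2 and 215. Its counts ran from 186 to 6312 while library totals were nearly equal. No 50-base stretch of Phlda2 occurs in another gene. ND C replicate 2 was among the 3 libraries lowest in Y-linked transcripts (54.9 TPM), and in the other 2 Phlda2 was at 15.0 and 37.3 TPM. The part of the sex of the embryos in the Phlda2 values was not tested. In pools, more expressing cells and more RNA per cell cannot be told apart.

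Cd81, a tetraspanin of the cell surface in the same cluster (chr7:143052750-143067930), was 34.0 and 71.1 TPM in ND C, 23.4 and 48.0 in ND siNT, 37.0 and 67.0 in ND siNampt, 20.8 and 40.4 in HFD C, 19.5 and 22.7 in HFD siNT and 19.04 and 72.6 in HFD siNampt. Replicate 2 was above replicate 1 in 6 of 6 groups. Ube3a, a ubiquitin ligase that is imprinted in neurons, was 16.2 and 12.9 TPM in ND C, 14.8 and 15.2 in ND siNT, 15.0 and 13.6 in ND siNampt, 13.9 and 15.1 in HFD C, 16.8 and 13.6 in HFD siNT and 17.1 and 12.9 in HFD siNampt. Its libraries lay within 1.33-fold. Other genes share 24.8% of its 50-base stretches, 24.9% of those of Cdkn1c, 21.2% for Mest and 18.6% for Gnas, so these levels are uncertain where reads were split. Ube3a, Cd81, Usp29, Gnas and Slc22a3 also overlap exons of genes on the other strand.

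Cdkn1c, the cell cycle inhibitor p57, was 1.41 and 2.04 TPM in ND C, 0.66 and 2.52 in ND siNT, 1.36 and 6.15 in ND siNampt, 1.13 and 1.53 in HFD C, 1.53 and 1.29 in HFD siNT and 1.79 and 2.49 in HFD siNampt. Slc22a18, an organic cation transporter, was 0.94 and 3.42 TPM in ND C, 0.47 and 0.70 in ND siNT, 1.44 and 0.79 in ND siNampt, 0.65 and 1.11 in HFD C, 0.81 and 1.61 in HFD siNT and 1.70 and 0.82 in HFD siNampt. Ascl2, a transcription factor required for the spongiotrophoblast, was 0.25 and 1.46 TPM in ND C, 0.19 and 0.37 in ND siNT, 0.44 and 0.71 in ND siNampt, 0.39 and 1.24 in HFD C, 0.74 and 0.53 in HFD siNT and 0.18 and 1.89 in HFD siNampt. These 3 members of the Kcnq1ot1 cluster reached 1 TPM in 11, 5 and 3 libraries. Their high libraries differed: Cdkn1c peaked in ND siNampt replicate 2, Slc22a18 in ND C replicate 2, as Phlda2 did, and Ascl2 in HFD siNampt replicate 2.

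H19, a noncoding RNA that restrains growth and hosts a microRNA, was 2.52 and 0.64 TPM in ND C, 4.03 and 0.64 in ND siNT, 10.1 and 1.03 in ND siNampt, 2.14 and 5.29 in HFD C, 3.43 and 5.58 in HFD siNT and 3.83 and 7.19 in HFD siNampt. Replicate 1 was higher in 3 of 3 ND groups and replicate 2 in 3 of 3 HFD groups, and the range was 15.8-fold over 60 to 996 counts. Igf2, the growth factor gene that shares its control region, was at 0.41 to 1.15 TPM.

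Grb10, an adaptor that damps insulin receptor signalling, was 1.84 and 1.37 TPM in ND C, 1.73 and 1.29 in ND siNT, 2.89 and 1.30 in ND siNampt, 1.36 and 2.32 in HFD C, 2.74 and 2.89 in HFD siNT and 3.67 and 0.69 in HFD siNampt. Meg3, a noncoding RNA, was 0.70 and 2.81 TPM in ND C, 1.13 and 1.66 in ND siNT, 0.90 and 0.90 in ND siNampt, 1.73 and 2.33 in HFD C, 2.57 and 1.56 in HFD siNT and 2.92 and 1.36 in HFD siNampt. Grb10 reached 1 TPM in 11 libraries and Meg3 in 9. Rian and Mirg, host transcripts of small RNAs next to Meg3, stayed at 0.06 to 0.94 and 0.21 to 0.68 TPM, and Slc22a3, a cation transporter beside Airn, at 0 to 0.10. Gnas, which encodes the stimulatory G protein subunit alongside transcripts of opposite imprinting, was 103 and 113 TPM in ND C, 94.0 and 112 in ND siNT, 131 and 126 in ND siNampt, 102 and 120.5 in HFD C, 133 and 97.6 in HFD siNT and 122 and 168 in HFD siNampt. Its mean of 119 ± 20.3 TPM was the next after Snrpn, and the gene table does not separate its transcripts.

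**Figure D2:**
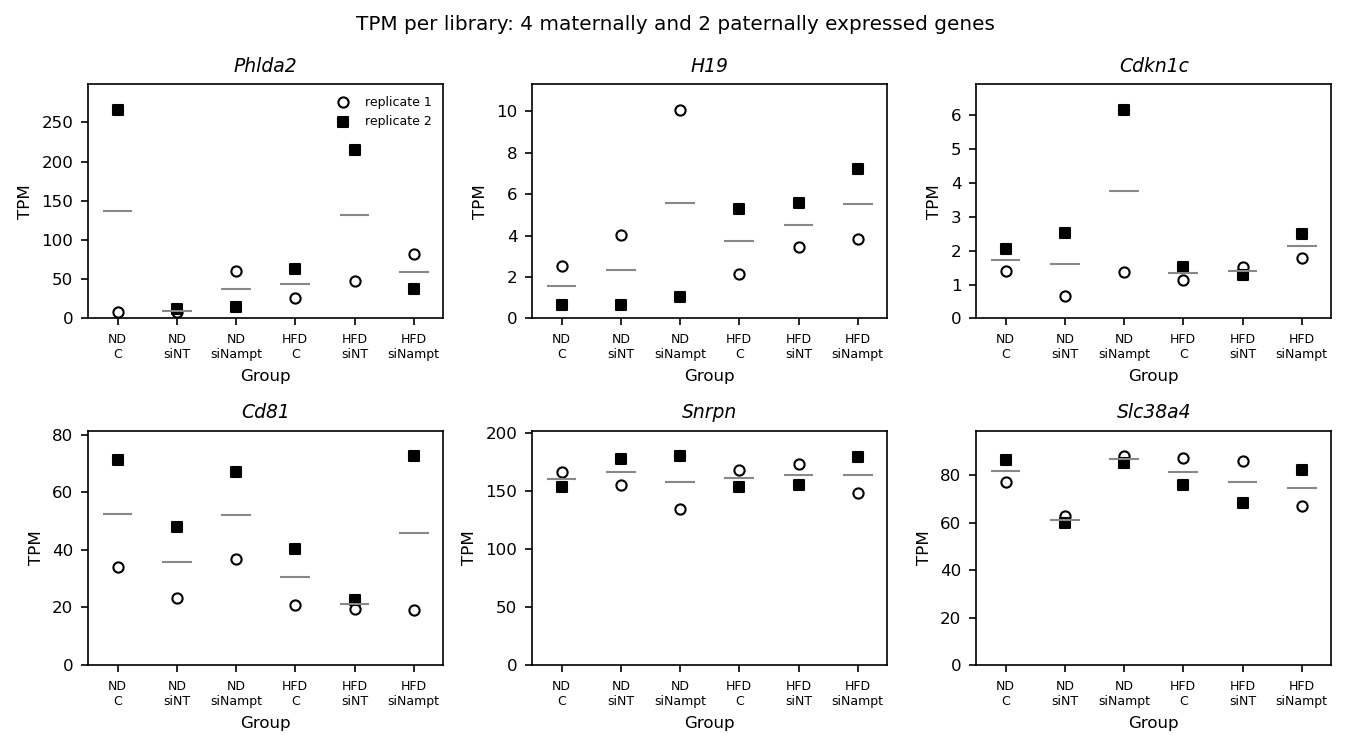
TPM by group for 4 maternally expressed genes (Phlda2, H19, Cdkn1c, Cd81) and 2 paternally expressed ones (Snrpn, Slc38a4); open circles are replicate 1, filled squares replicate 2, grey lines group means. Phlda2 is at 266 TPM in one ND C pool and 7.76 in the other, Cd81 is higher in replicate 2 in each group, and Snrpn stays between 135 and 180 TPM.

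In order of mean TPM, Snrpn, Gnas, Mcts2 and Slc38a4 led, and each overlapped the range of the next. Phlda2 and Cd81 came next and overlapped each other, then Ube3a at 14.7 and Impact at 12.7. From Jade1 to Sfmbt2 neighbouring means differed by less than their SD over libraries, and so did those of Mest, Airn, Grb10 and Cdkn1c, at 2.33 to 1.99 TPM.

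Within groups, most members varied more between pools than the median gene did. The biological coefficient of variation within groups, edgeR's estimate of the relative spread beyond counting noise, had a median of 0.37 over the 35 members that passed the count filter, against 0.25 over all 14743 genes, and 25 of the 35 lay above the median gene. It was 0.25 over the 16 paternally expressed members that reached 1 TPM somewhere and 0.45 over the 9 maternally expressed ones. These medians are not matched for level: 10 of the 16 and 3 of the 9 reached 1 TPM in every library. Members of few counts had wide estimates, with Ndn (0.92), Rasgrf1 (0.86) and Nap1l5 (0.83) the highest of the 35. The part of parental class in the spread was not tested. Slc38a4 (0.12) and Snrpn (0.13) were among the steadiest genes, with 2.14% and 7.20% of tested genes below them. Phlda2 (0.72) and H19 (0.64) were above 89.0% and 85.5%. Of the 26 members that reached 1 TPM somewhere, 6 were highest in ND C replicate 2 and 6 in HFD siNampt replicate 1, while ND siNT replicate 1 was lowest for 6. The shares of all genes highest or lowest in these libraries were not counted. A trait of the members and a trait of the library can therefore not be told apart here.

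The knockdown was compared with the non-targeting siRNA over both diets, 4 libraries each. Of the 35 members tested 0 passed an adjusted p of 0.05, where 0% of all 14743 genes did. By an unadjusted p under 0.05 it was 2 members, against 11.2% of all genes. Of the members 15 were higher and 20 lower with siNampt, with a median log2 fold change of -0.07 against 0.03 over all genes. The 23 paternally expressed members (9 higher) and the 11 maternally expressed ones (5 higher) had medians of -0.07 and -0.10. The 3 members of smallest p did not pass.

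Airn was lower with siNampt, at 1.32 to 1.83 TPM against 1.96 to 3.00 with siNT, in 4 of 4 pairs of diet and batch (log2 fold change -0.89, SE 0.35, edgeR adjusted p = 0.396). These TPM ranges of Airn did not overlap, but its counts did. The C libraries, at 1.38 to 2.62 TPM, overlapped both ranges. Gab1 was higher with siNampt, at 9.15 to 11.8 against 6.71 to 8.17 TPM, in 4 of 4 pairs (0.31, SE 0.12, edgeR adjusted p = 0.408). Mcts2 was lower in 4 of 4 pairs in TMM-scaled counts, the scale of the test, and in 3 of 4 in TPM, with overlapping values (-0.23, SE 0.12, edgeR adjusted p = 0.475). Phlda2 showed how the spread limits this design, with -0.40 and an SE of 1.05, while Slc38a4 and Snrpn had SEs of 0.11.

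**Figure D3:**
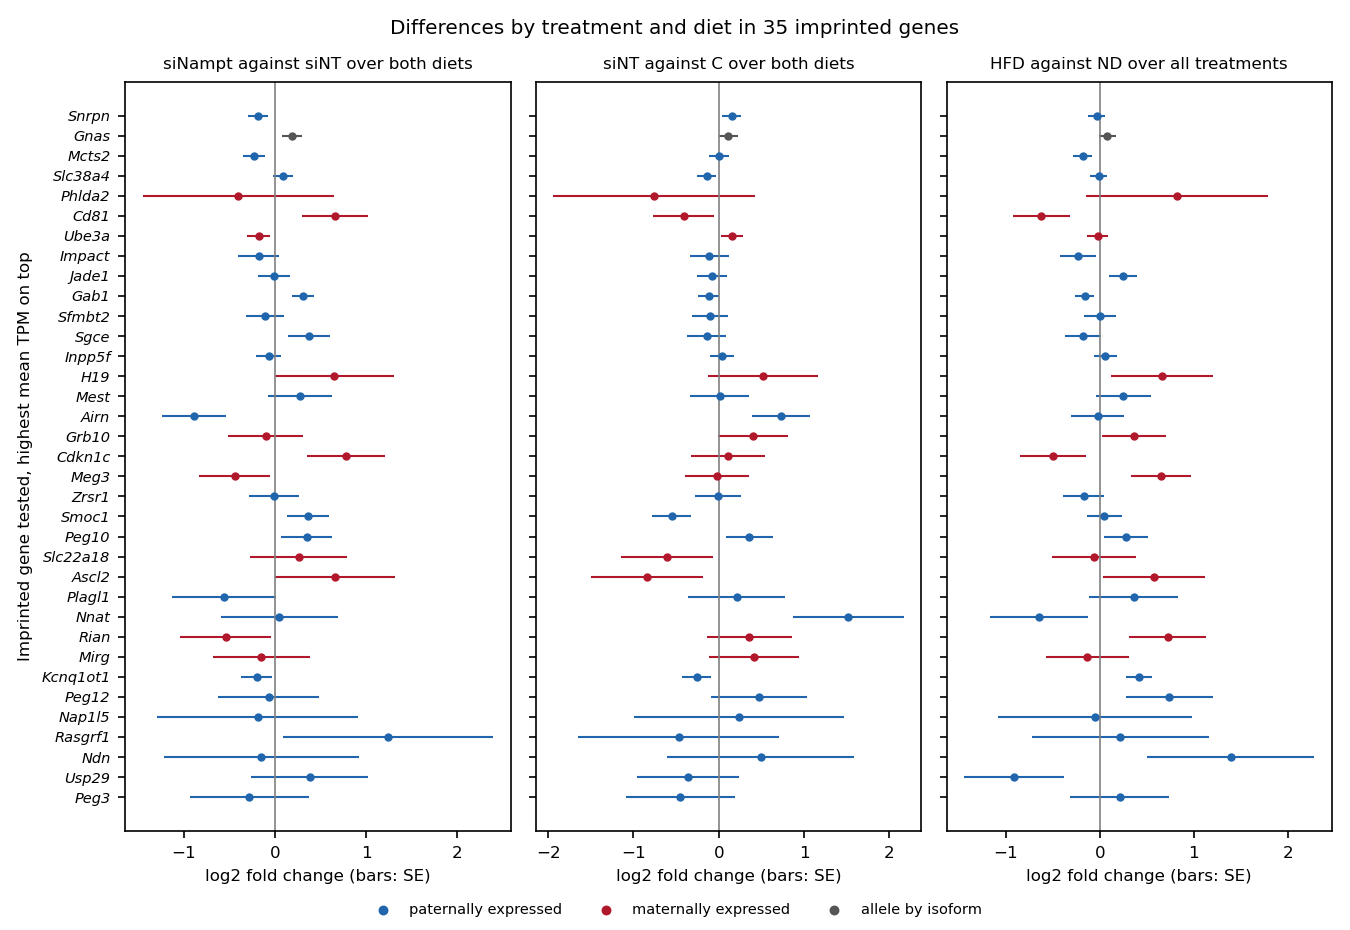
Log2 fold changes with bars of 1 SE for the 35 tested members in 3 comparisons, highest mean TPM on top, coloured by parental class. None passed the adjusted threshold in these comparisons; bars are short for Snrpn, Gnas, Mcts2 and Slc38a4 and long for Phlda2, Ndn, Nap1l5 and Rasgrf1.

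Within ND, 2 libraries against 2, 0 members passed as did 0% of all genes, and 1 had an unadjusted p under 0.05, against 8.34% of all genes. Slc38a4 had a log2 fold change of 0.32 (SE 0.14, edgeR adjusted p = 0.588), with 88.0 and 85.2 TPM for siNampt and 62.6 and 60.0 for siNT. Mcts2 (-0.37, SE 0.17, adjusted p = 0.588) and Usp29 (-1.33, SE 0.65, adjusted p = 0.594) followed. Within HFD 0 members passed, as did 0% of genes, and 1 had an unadjusted p under 0.05, against 4.27%. That member was Usp29, a ubiquitin protease gene, with 1.89 (SE 0.68, edgeR adjusted p = 0.923), followed by Airn (-1.08, SE 0.52) and Cd81 (0.95, SE 0.54) at the same adjusted p. The Cd81 value rested on 1 library: without HFD siNampt replicate 2 it was -0.24.

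The difference between the diets in the response to siNampt passed for 0 members and 0% of genes, and 2 members had an unadjusted p under 0.05, against 3.06% of genes. Usp29 had the smallest p, at 3.22 (SE 0.94, edgeR adjusted p = 1). Its counts were 48 and 84 in ND siNT, 19 and 44 in ND siNampt, 22 and 9 in HFD siNT and 51 and 66 in HFD siNampt. So the siNampt pools were the lower ones in ND and the higher ones in HFD, all below 1 TPM. Slc38a4 (-0.48, SE 0.20) and Phlda2 (-3.06, SE 1.61) followed, also with an adjusted p of 1. The Phlda2 value was -1.54 without HFD siNT replicate 2 and -1.74 without ND siNampt replicate 1, and ran to -3.83 over all libraries left out 1 at a time.

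The non-targeting siRNA was compared with C over both diets, and this comparison shares the siNT libraries with the knockdown one. It gave 0 members and 0% of genes past the adjusted threshold, and 2 members by an unadjusted p under 0.05, against 4.40% of genes. The median over members was -0.00 against -0.01, with 17 higher and 18 lower. Nnat had 1.52 (SE 0.65), Smoc1 -0.55 (SE 0.23) and Airn 0.73 (SE 0.34), each with an edgeR adjusted p of 0.984. Airn was higher with siNT than with C in 4 of 4 pairs.

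HFD was compared with ND over all treatments, 6 libraries each. It gave 0 members and 0% of genes past the adjusted threshold, and 1 member by an unadjusted p under 0.05, against 3.22% of genes. Medians were 0.05 over members and 0.00 over genes, -0.00 over paternally and 0.36 over maternally expressed members (6 of 11 higher). Kcnq1ot1 was the 1 member, at 0.42 (SE 0.14, edgeR adjusted p = 1), higher with HFD in 6 of 6 pairs of treatment and batch. The mean difference was 0.65 in batch 1 and 0.12 in batch 2, and TPM overlapped at 0.24 to 0.38 for ND and 0.29 to 0.52 for HFD. Meg3 (0.65, SE 0.32) and Cd81 (-0.62, SE 0.30) followed with an adjusted p of 1. H19 averaged 3.16 ± 3.64 TPM in ND and 4.58 ± 1.80 in HFD (SD, n = 6), and Phlda2 61.6 ± 102 and 78.6 ± 69.7, differences below their SDs.

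**Figure D4:**
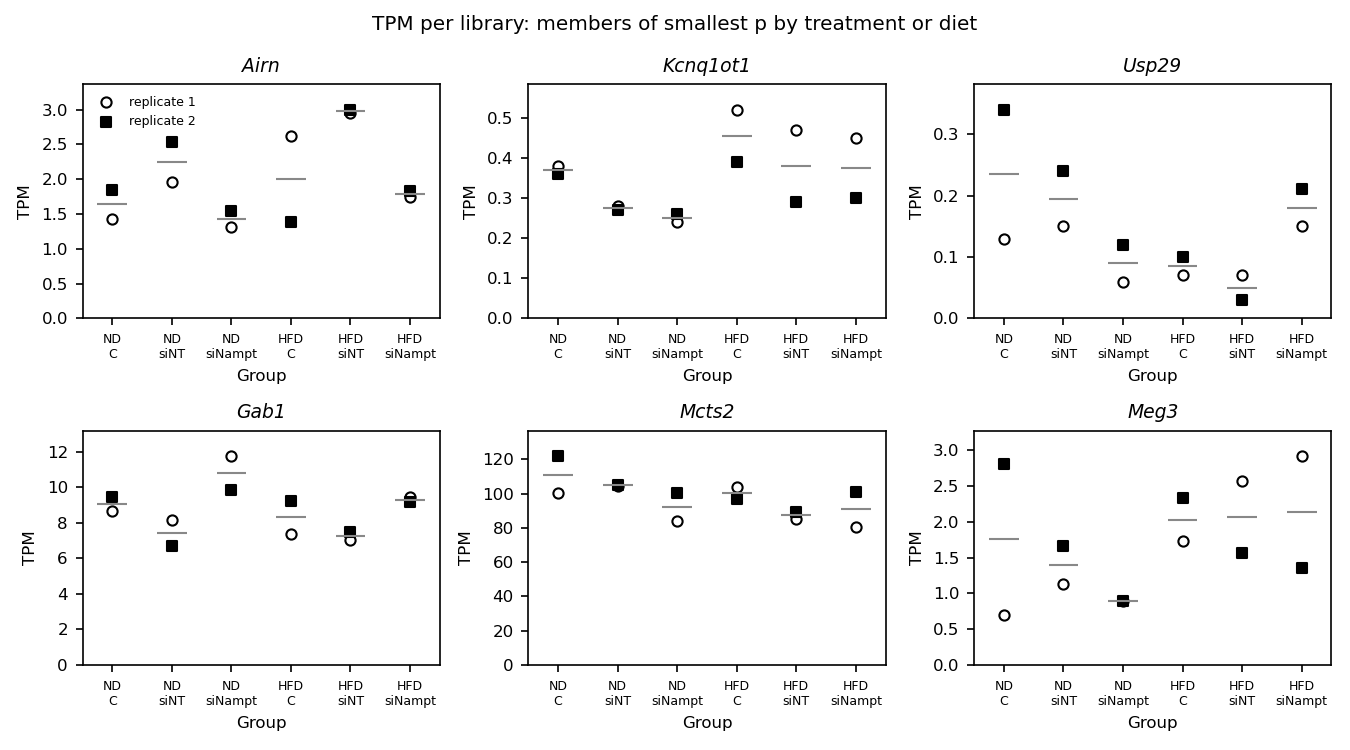
TPM by group of 6 members named in the comparisons by treatment or diet; open circles are replicate 1, filled squares replicate 2, grey lines group means. Airn is at 1.32 to 1.83 TPM with siNampt, 1.96 to 3.00 with siNT and 1.38 to 2.62 in C. Kcnq1ot1 is higher in HFD in each pair, while none of the 6 passed the adjusted test.

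Replicate 2 was compared with replicate 1, the batches of the labels, after the values had been seen. Here 1 member passed the adjusted threshold, against 0.549% of all genes (81), and 9 members had an unadjusted p under 0.05, against 9.95% of genes. The member was Cd81, higher in replicate 2 with a log2 fold change of 1.00 (SE 0.14, edgeR adjusted p = 0.00453) and by 0.39 to 1.80 over the 6 groups. Replicate 1 averaged 25.6 ± 7.84 TPM and replicate 2 53.6 ± 20.0 (SD, n = 6). Cd81 was the 1 member that was higher in replicate 2 in all 6 groups, as were 428 genes (2.90%). Ascl2 (1.35, SE 0.45, adjusted p = 0.27) and Sfmbt2 (0.41, SE 0.14, adjusted p = 0.289) did not pass. Sfmbt2 passed, at 0.57 with an edgeR adjusted p of 0.0304, when HFD siNampt replicate 1 was left out.

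Y-linked transcripts moved opposite to Cd81 in some libraries and not in others. Their sum was 154 and 54.9 TPM in ND C, 140 and 184 in ND siNT, 174 and 44.5 in ND siNampt, 147 and 138 in HFD C, 153 and 83.4 in HFD siNT and 76.5 and 34.8 in HFD siNampt, lower in replicate 2 in 5 of 6 groups. The 3 libraries with the smallest sums had the 3 highest Cd81 values, 72.6, 71.1 and 67.0 TPM. The next smallest sums came with low Cd81 values. HFD siNampt replicate 1, with a sum of 76.5, had the lowest Cd81 value, 19.04 TPM, and HFD siNT replicate 2, with 83.4, was at 22.7. A covariate was fitted from the mean log2 scaled counts of the same Y-linked genes, not from these sums. With it Cd81 kept a log2 fold change of 0.91 but no longer passed (edgeR adjusted p = 0.195). Most of the 81 genes that had passed between replicates no longer did so with this covariate, so the lost call was not particular to Cd81. In ND siNT, where the Y-linked sum was higher in replicate 2, Cd81 was at 48.0 against 23.4 TPM. Since the Y-linked sum was lower in replicate 2 in 5 of 6 groups, the covariate and the batch ran largely together. The part of the sex of the embryos in the Cd81 values was not tested.

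Of 44 further imprinted genes, 43 were in the tables, and 11 of these were expressed, 8 partly and 23 below 1 TPM, with Ins2 at 0 throughout. The highest were Commd1 (349 TPM), Nap1l4 (38.2), Pon2 (24), Tssc4 (11.5) and H13 (9.80). Xist, which silences an X chromosome in females, was at 2.01 to 11.6 TPM and highest in ND C replicate 2. None of the 30 tested passed in any of the 7 comparisons, with 0 to 2 at an unadjusted p under 0.05 in each.

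The factors that keep imprints were all expressed, 18 of 18. Dppa3, which protects maternal methylation in the zygote, averaged 4426 TPM (2643 to 6167), followed by the Polycomb subunits Eed (129) and Suz12 (60.7), the acetyltransferase subunit Naa10 (58.0) and Trim28 (51.7). Zfp57 was at 20.5 to 50.4 TPM and Dnmt1, the maintenance methyltransferase, at 1.40 to 2.91. None of the 18 passed in any of the 7 comparisons, with 0 or 1 at an unadjusted p under 0.05 in each.

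The count filter bore on these calls. With no filter on low counts, where edgeR gave each gene the trended spread at its abundance, Cd81 passed in the knockdown over both diets, in HFD and by diet, and Phlda2 in siNT against C, in ND, in HFD, in the interaction and by diet. Under the other settings run, DESeq2, RLE factors, a stricter filter, the replicate number in the model and limma among them, 0 members passed in the 6 comparisons of treatment and diet.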

How the data were processed

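RNA of 12 pools of 10 blastocysts was measured with SMART-Seq libraries, 2 per group, per the labels' protocols. The authors deposited 1 table per library with RSEM's expected counts, TPM and FPKM per gene, per the file headers, and the submitters' processing notes name STAR 2.7.10, RSEM 1.2.28 and mm10 without settings. The deposited TPM values were used for levels and the deposited expected counts, rounded to whole numbers (6.43% were not whole), for tests, and FPKM was not used here. Depth was 42473129 to 50503064 expected counts per library, and 0 rows named no gene.

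Counts were filtered with filterByExpr (minimum count 10, by group), which left 14743 of 24411 genes, and scaled by TMM. The test was the two-sided quasi-likelihood test of edgeR 4.0.16 (R 4.3.3, Benjamini-Hochberg over all genes tested, threshold 0.05). Each fit used all 12 libraries. Diet and treatment as additive terms gave the comparisons over both diets or all treatments, and a model of 6 group means those within a diet and the interaction. Each standard error (SE) was derived from the fit by dividing the size of the log2 fold change by √F. The method was run on simulated data for the knockdown over both diets only, with large changes and the same spread for all genes. That run does not bear on smaller changes, on members of wider spread or on the other comparisons. The members and lists were chosen with earlier results of these data known. Members named in a comparison are those that passed, or else the 3 of smallest p. Values per library are given for members that reached 1 TPM. Of the other lists the 5 members of highest mean TPM are named, and Igf2, Igf2r, Xist, Ins2, Zfp57 and Dnmt1 were named after their values were seen, as were the values of members outside the rule and the comparison of replicates.

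Batch and replicate numbers are the same in the labels, so the numbers pair libraries across groups. The correlation between groups of the difference between replicates ran from -0.0581 to 0.22 over 15 pairs of groups (median 0.0917), and 6 were above 0.1. The replicate block was an alternative, beside DESeq2 1.42.0, RLE factors, no filter, a filter of 5 CPM in at least 2 libraries, limma 3.58.1 on log2(TPM + 1) and log2(TPM + 0.1), only the libraries compared, a covariate of Y-linked transcripts and leaving out each library.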

Additional observations from a re-analysis of the deposited data

Results flagged for a closer look

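In each member that reached 1 TPM somewhere, the highest and the lowest library of each treatment (4 libraries) and each diet (6 libraries) were compared with the rest, 130 tests in all. In 17 of them a library lay far from the others by Dixon's test. That test flags about 1 in 20 sets of independent, normally distributed values. Here each library entered both a treatment and a diet test, and each set pooled several groups. The 17 can therefore not be set against that rate.

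Maternally expressed genes gave 8 of these. Phlda2 was at 266.49 TPM in ND C replicate 2 against 7.76 to 60.73 in the other ND libraries, and at 215.13 in HFD siNT replicate 2 against 26.37 to 81.89 in the other HFD ones. Slc22a18, close to Phlda2 on chromosome 7, was at 3.42 TPM in ND C replicate 2, against 0.65 to 1.11 in the other C libraries and 0.47 to 1.44 in the other ND ones. H19 was at 10.08 TPM in ND siNampt replicate 1 (other ND libraries 0.64 to 4.03), where Grb10 was at 2.89 (1.29 to 1.84). Cdkn1c was at 6.15 TPM in ND siNampt replicate 2 (other ND libraries 0.66 to 2.52). Cd81 was at 48.04 TPM in ND siNT replicate 2 (other siNT libraries 19.49 to 23.37).

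Paternally expressed genes gave the other 9. Impact was at 24.32 TPM in ND C replicate 2, against 9.42 to 11.8 in the other C libraries and 9.09 to 14.69 in the other ND ones. Nnat was at 1.2 TPM in ND siNampt replicate 2, against 0.42 to 0.5 in the other siNampt libraries and 0.29 to 0.48 in the other ND ones. Peg10 was at 1.98 TPM in ND siNampt replicate 1 (other ND libraries 0.77 to 1.2), and Inpp5f at 3.51 there (other siNampt libraries 5.06 to 5.33). Jade1 was at 15.19 TPM in HFD siNampt replicate 1 (other siNampt libraries 7.8 to 8.76). Sfmbt2 was at 11.89 TPM in HFD C replicate 2 (other HFD libraries 6.87 to 8.74), and Zrsr1 at 0.94 in HFD C replicate 1 (other C libraries 1.99 to 2.14).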

How the results depend on the processing

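With the replicate block in the model 0 genes and 0 members passed in each of the 6 comparisons of treatment and diet, as without it. With no filter on low counts, genes passing rose from 0 to 119 for the knockdown over both diets, 76 for siNT against C, 99 by diet, 108 for the knockdown in ND, 68 in HFD and 40 for the interaction, with 1, 1, 2, 1, 2 and 1 members, and from 81 to 224 between replicates. With DESeq2 the counts were 2 for siNT against C, 2 by diet, 2 for the knockdown in HFD and 285 between replicates. Between replicates limma on log2(TPM + 1) gave 52 genes, and the covariate of Y-linked transcripts 14 genes and 0 members. The cause of these differences was not tested.

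Leaving out each library gave 0 to 1 genes by diet, 0 to 1 for the knockdown in HFD, 0 to 2 for the interaction and 48 to 93 between replicates, where 1 to 2 members passed. Cd81 in the knockdown in HFD had -0.24 without HFD siNampt replicate 2 in place of 0.95, and -0.24 to 1.60 over all libraries left out. Members expressed numbered 14, and 22 with 0.5 TPM, 28 with 10 expected counts, 22 by a median of 1 TPM, 11 with 5 TPM, 14 to 15 when a library was left out and 15 without the 3 libraries lowest in Y-linked transcripts, a setting chosen after seeing the data. The fit with only the libraries compared was not run by diet, which uses all libraries. Of the other settings of named members, 418 kept direction and side of the threshold, 4 newly passed and 1 no longer passed. With 2 pools per group, differences smaller than the spread between pools could not be detected.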
